A study of Mus musculus with 11 samples.

Results

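Hepcidin and the genes of hepatic iron handling were examined as 10 members, chosen by symbol: Hamp, Tfr2, Hfe, Trf, Tfrc, Slc11a2, Fth1, Ftl1, Cp and Slc40a1. All probe sets whose platform annotation gave 1 of these symbols alone were taken, which gave 26 of 22690 probe sets and covered 8 of the 10 genes. The other two, Trf (transferrin) and Ftl1 (ferritin light chain), were named only by 4 probe sets that also carried another symbol, and these are described apart and untested. Of the 26 probe sets, 22 lay above the limit under which probe sets were treated as dim, a mean signal of 53.0, and all 8 genes entered the test across 7924 genes.

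The study asked what a high-fat diet and muscle growth driven by Akt1, a kinase of insulin and growth factor signalling, do to gene expression in liver. The groups were 3 wild-type mice fed a normal diet, 4 wild types fed a high-fat diet and, also fed the high-fat diet, 4 mice with the genotype labelled DTG, the Akt1 double transgenic mice. All were male, of mixed background, and each group had doxycycline for 3 weeks, so the controls carried that drug too. Muscle hypertrophy was recorded for the transgenic mice alone. The promoter that drives the transgene and the age of the mice are not given in the sources used here. No transgenic mice on the normal diet were analysed here, so the transgenic mice differ from the normal-diet mice in both diet and genotype.

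Hepcidin is a peptide hormone that the liver secretes. It binds ferroportin, the only known cellular iron exporter, and sends it for degradation, which lowers the release of iron into blood. Its transcription in hepatocytes is raised by iron, through bone morphogenetic protein (BMP) ligands and SMAD proteins, and by inflammation, through interleukin 6 (IL-6) and STAT3. Ferritin stores iron, transferrin carries it in plasma, and the iron regulatory proteins act on the transferrin receptor and ferritin transcripts rather than on their genes.

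Both routes are known to act on the Hamp promoter, so the 150 bases before its start are shown here with the same stretch of Hamp2, its near-identical neighbour, because probe sets for one can also take up RNA of the other. Both come from RefSeq (GRCm38.p6), are printed 5′ to 3′ and lie on the minus strand, Hamp at chr7:30944030-30944179 and Hamp2 at chr7:30924182-30924331. Capitals mark the letters GGCGCC, the form of a BMP-responsive element, and TTCNNNGAA, the form of a STAT site.
Hamp: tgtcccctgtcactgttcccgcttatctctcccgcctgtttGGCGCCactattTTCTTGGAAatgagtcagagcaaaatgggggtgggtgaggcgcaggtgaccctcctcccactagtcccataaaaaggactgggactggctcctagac
Hamp2: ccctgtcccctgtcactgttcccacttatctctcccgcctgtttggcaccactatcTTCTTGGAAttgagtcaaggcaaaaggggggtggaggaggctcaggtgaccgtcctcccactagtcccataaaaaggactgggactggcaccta
Each motif reads the same on both strands, and the matches do not overlap. In Hamp, GGCGCC lay 109 to 104 bases and TTCTTGGAA 97 to 89 bases before the start. In Hamp2, TTCTTGGAA lay 94 to 86 bases before the start and GGCGCC was not in the window. Over 32851 windows of 250 bases before gene starts, 9.59% held GGCGCC, 7.02% held TTCNNNGAA and 0.368% held both. Of the members, 7 of 10 had 12 windows in the table. Beside Hamp, 1 of the 2 Tfrc windows held GGCGCC, 89 to 84 bases before the start. A match describes letters and not a bound site.

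The values are MAS5 signals, a linear intensity per probe set that each array's scaling brought to a trimmed mean near 500.3. Signals of different probe sets were not compared with each other. Differences are on the log2 scale ± the moderated standard error of limma, with p-values adjusted by Benjamini-Hochberg over all 7924 genes and a threshold of 0.05. Transgenic arrays 3 and 4 stood apart: their highest signals were 42425.5 and 43273, against 27779.5 to 35450.1 in the other 9 arrays, and their mean Spearman correlations with other arrays were 0.940 and 0.943, against 0.948 to 0.951. Transgenic array 3 also had the highest Gapdh 3′/5′ ratio, 0.823 against 0.669 to 0.768. Its mean signal of poly-A spike-in controls was the lowest, 113 against 277 to 468 on the other arrays. Results on the transgenic mice are therefore also given without arrays 3 and 4, and without arrays 1 and 2, as settings chosen after seeing the data. The 8 hepatocyte markers on the array were all above the dim limit. Their summed signal was 137584 to 157431 on the normal diet and 158807 to 172475 in wild type on the high-fat diet. On transgenic arrays 1 to 4 it was 158241, 162088, 216982 and 213256, so only arrays 3 and 4 lay above the wild-type arrays. This depended on the scaling. Between transgenic and wild-type mice on the high-fat diet the median log2 difference of these markers was 0.18, and 0.003 with quantile normalization. Against the normal diet it was 0.27, and 0.029 with quantile normalization.

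None of the 8 measured members passed the threshold in any comparison. The high-fat diet in wild-type mice called 0 of 8 members, where 0% of all genes were called, and none of the 8 had an unadjusted p under 0.05 (limma), against 7.02% of all genes. The comparison of transgenic with wild-type mice on the high-fat diet, called the Akt1 comparison below, also called 0 of 8, where 0.366% of all genes were called (0.227% higher, 0.139% lower). Unadjusted, 3 of 8 (Tfr2, Cp and Slc40a1) were under 0.05 in that comparison (limma), against 13.7% of all genes. The comparison of transgenic mice with wild type on the normal diet called 0 of 8, where 2.08% of all genes were called (1.40% higher, 0.681% lower), and unadjusted the same 3 genes were under 0.05 (limma), against 18.3%. The comparisons share arrays, the wild-type high-fat arrays between the first and second, the normal-diet arrays between the first and last and all 4 transgenic arrays between the second and last, so their values stand side by side without being counted as separate support. In the fit over all 20393 probe sets with 1 symbol, 0 of the 26 member probe sets were called in each comparison, where 0%, 0.108% and 0.986% of the probe sets were called.

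**Figure D1:**
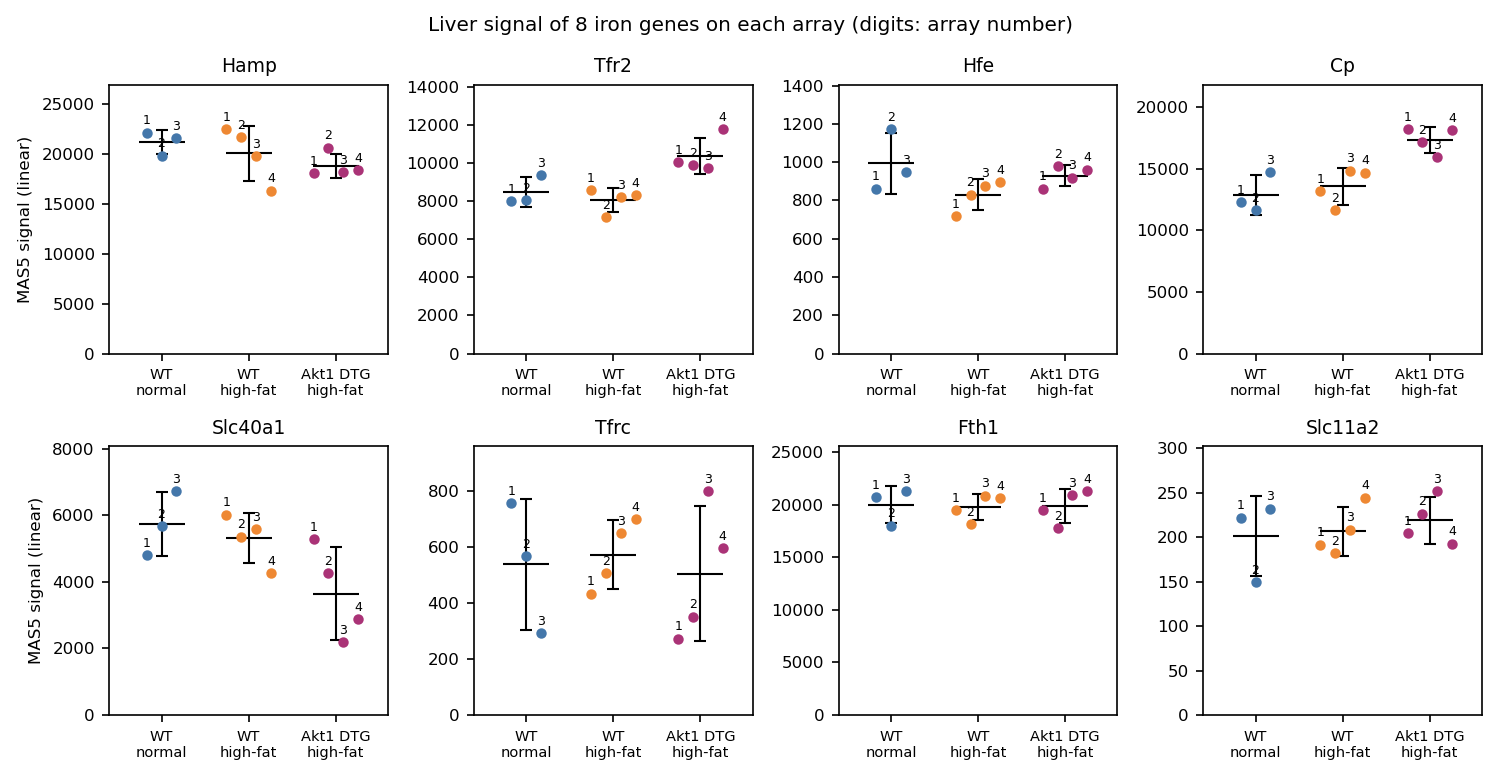
MAS5 signal (linear scale, vertical axis from 0) of the brightest probe set of each of the 8 measured members on every array, in 3 groups (3, 4 and 4 arrays). Digits are array numbers within a group and bars are the mean ± SD. Tfr2 and Cp lie higher on all 4 transgenic arrays than on the 7 wild-type arrays, and Slc40a1 is lowest on transgenic arrays 3 and 4.

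For the hormone itself no comparison was called and the groups overlapped. The Hamp signal was 22126, 19826 and 21558 on the normal diet, 22474.5, 21697, 19813 and 16328 in wild type on the high-fat diet, and 18105, 20651.5, 18157 and 18410.5 in transgenic mice, in array order. The lowest value was that of wild-type high-fat array 4. Group means were 21170 ± 1198 (SD, n = 3), 20078 ± 2738 (n = 4) and 18831 ± 1221 (n = 4). The diet difference was -0.09 ± 0.11 on the log2 scale (limma adjusted p = 0.930), with a 95% interval of -0.33 to 0.16. For the Akt1 comparison it was -0.08 ± 0.10 (0.762), with an interval of -0.31 to 0.14, and against the normal diet -0.17 ± 0.11 (0.456), with an interval of -0.41 to 0.08. These intervals leave room for a modest difference and do not show that the groups were alike.

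A further Hamp probe set, marked _x_at for cross-hybridising probes, ranged from 18094.5 to 20831 on the normal diet, 15211 to 20924 in wild type on the high-fat diet and 15446 to 20752 in transgenic mice. Its groups overlapped as well. Hamp2, which is no member, had a pair of probe sets. The brighter, also marked _x_at, gave 2283 to 6919, 2327 to 5516 and 1589 to 3325 in the same order. Its Akt1 difference was -0.71 ± 0.34 (limma adjusted p = 0.482 over all probe sets). The other Hamp2 probe set, at 1.4 to 45.0 on all arrays and so under the dim limit, had the opposite sign, 0.73 ± 1.00 (0.843). Since the copies are near-identical, the split of signal between Hamp and Hamp2 is uncertain.

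Hepatocytes sense circulating iron through transferrin receptor 2 (Tfr2) and the haemochromatosis protein (Hfe), both of which act upstream of hepcidin. The Tfr2 signal was 8003, 8068 and 9393 on the normal diet, 8601, 7155, 8239 and 8335 in wild type on the high-fat diet, and 10062, 9920, 9732 and 11790.0 in transgenic mice. Every transgenic array lay above every wild-type array on either diet. Means were 8488 ± 785 (n = 3), 8083 ± 637 (n = 4) and 10376 ± 952 (n = 4). The Akt1 difference was 0.36 ± 0.096, a ratio of 1.28 with a 95% interval of 0.15 to 0.57 in log2, and did not pass after adjustment (limma adjusted p = 0.130). It was 0.31 (0.386) without transgenic arrays 3 and 4 and 0.41 (0.107) without arrays 1 and 2, the lowest and highest adjusted p over the alternatives being 0.107 and 0.386. Against the normal diet it was 0.29 ± 0.10 (0.171), and the diet difference was -0.07 ± 0.10 (0.940).

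Tfr2 was higher on every transgenic array without passing the threshold. Such a separation is not rare here: in the Akt1 comparison 4.32% of all genes were higher without overlap, and against the normal diet 8.46% were, while 2 of the 8 members (Tfr2 and Cp) were so in each, with the same 4 transgenic arrays in both. None of the 8 was lower without overlap, against 4.09% and 7.10% of all genes. In either direction 8.40% and 15.6% of all genes separated. For diet none of the 8 separated, against 4.58% of genes higher, 3.33% lower and 7.91% in either direction. The other Tfr2 probe set overlapped, with 4255 to 5313 on the normal diet, 4035 to 5511 in wild type on the high-fat diet and 4751 to 6116 in transgenic mice.

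The Hfe signal was 862, 1172 and 947 on the normal diet, 717, 831, 877.5 and 894 in wild type on the high-fat diet, and 861, 981, 918 and 960.4 in transgenic mice. The groups overlapped, with wild-type high-fat arrays 1 and 2 below every array of the other groups. Means were 994 ± 160.1 (n = 3), 829.8 ± 79.8 (n = 4) and 930.1 ± 52.8 (n = 4). The diet difference was -0.25 ± 0.13 (limma adjusted p = 0.742), and the Akt1 difference was 0.17 ± 0.12 (0.556). A dim Hfe probe set gave -1.04 ± 0.43 for diet (0.804 over all probe sets), with signals of 28.5 to 90.1 on the wild-type arrays.

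**Figure D2:**
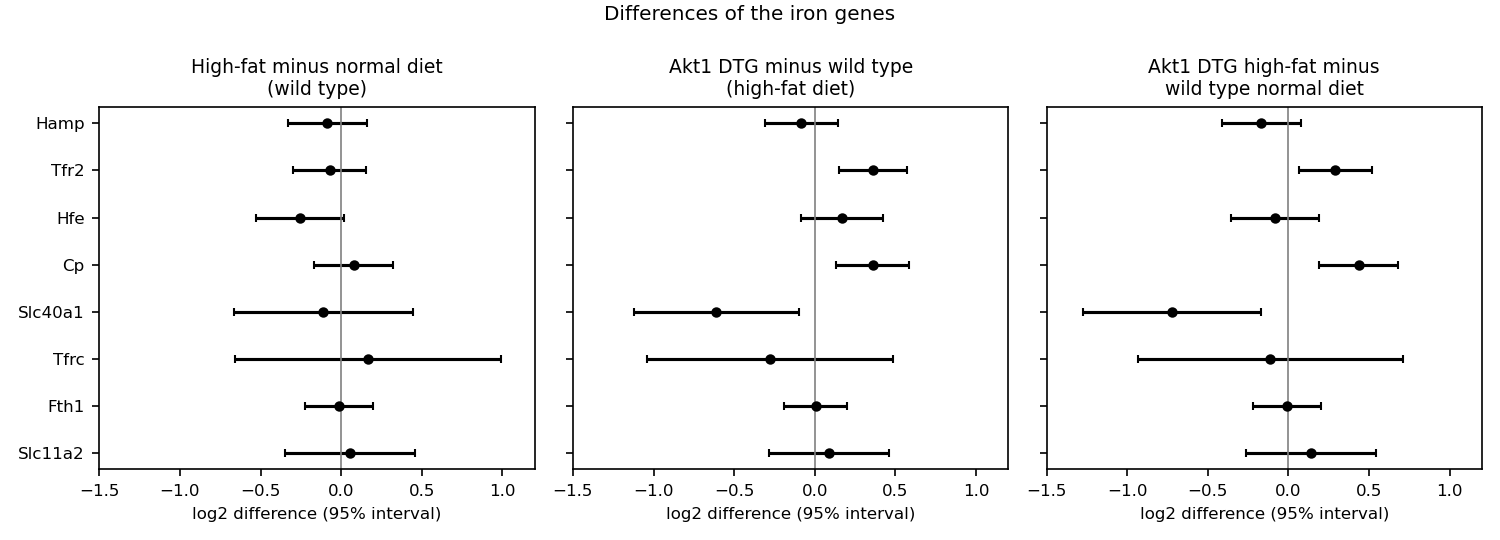
Log2 differences (horizontal axis) with 95% intervals from limma for the 8 measured members in the 3 comparisons. Intervals for Tfr2 and Cp lie above 0 and those for Slc40a1 below 0 in both comparisons with transgenic mice, and no adjusted p is under 0.05, the lowest being 0.0711 for Cp against the normal diet.

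Ceruloplasmin (Cp), a plasma ferroxidase that oxidises iron for loading onto transferrin and is also an acute phase protein, had the lowest adjusted p of the members. Its brightest probe set gave 12268, 11667 and 14732 on the normal diet, 13201, 11646, 14857 and 14682 in wild type on the high-fat diet, and 18209, 17188, 15925 and 18147 in transgenic mice. All 4 transgenic arrays were above all 7 wild-type arrays. Means were 12889 ± 1624 (n = 3), 13597 ± 1497 (n = 4) and 17367 ± 1069 (n = 4). The Akt1 difference was 0.36 ± 0.10, a ratio of 1.28 (limma adjusted p = 0.169), and the difference from the normal diet was 0.44 ± 0.11, a ratio of 1.35 (0.0711). The diet difference was 0.08 ± 0.11 (0.940). Without transgenic arrays 3 and 4 the Akt1 value was 0.39 (0.373), and without arrays 1 and 2 it was 0.33 (0.209), while over all alternatives its adjusted p was 0.146 to 0.373.

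Cp had 5 bright probe sets, and 4 of them were higher on every transgenic array than on every wild-type array. The largest difference among them was that of the probe set with 4031 to 5336.5 on the normal diet, 3924 to 5469 in wild type on the high-fat diet and 6137 to 7683 in transgenic mice. It gave 0.45 for the Akt1 comparison (limma adjusted p = 0.218 over all probe sets) and 0.54 against the normal diet (0.103). The remaining bright probe set disagreed: its transgenic signals were 9602, 9005, 4950 and 5960.0, above the wild-type range of 6419 to 8339 on arrays 1 and 2 and below it on arrays 3 and 4. Its differences were -0.06 and -0.03. The part of the features that set arrays 3 and 4 apart in this split was not tested. The other 2 Cp probe sets were at 40.2 to 128.4.

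**Figure D3:**
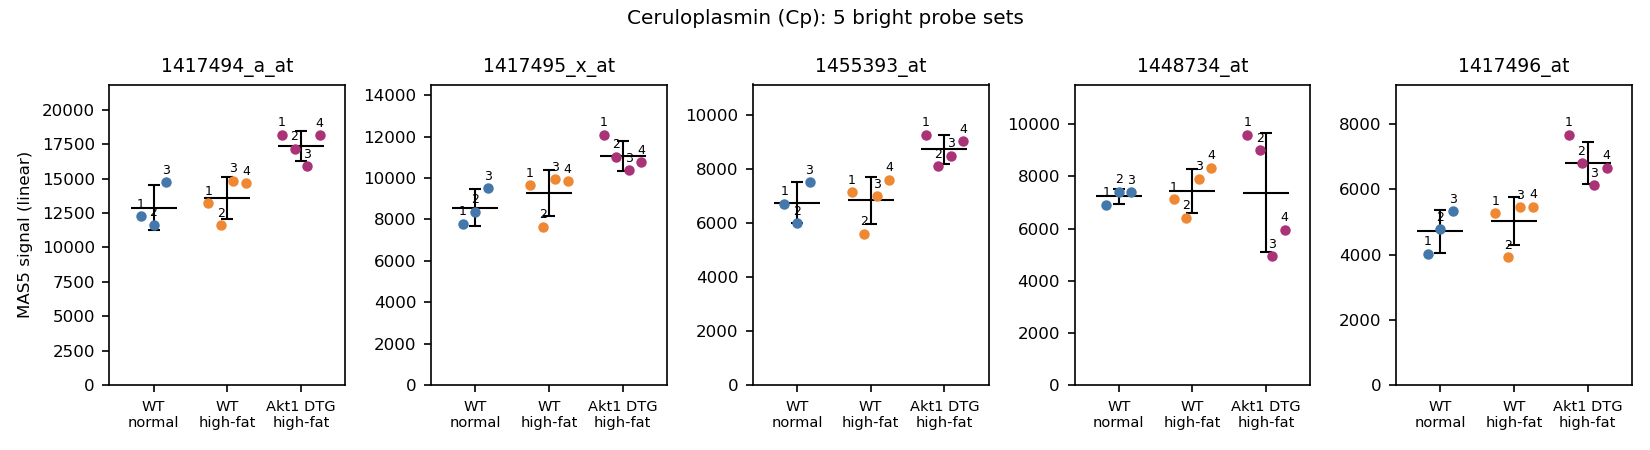
MAS5 signal per array (vertical axis) of the 5 bright Cp probe sets in the 3 groups of 3, 4 and 4 arrays. In 4 panels the transgenic arrays lie above all others, and in the panel that differs transgenic arrays 3 and 4, at 4950 and 5960.0, lie below the wild-type arrays.

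Ferroportin (Slc40a1), the exporter that hepcidin removes, is made in hepatocytes and strongly in the resident macrophages of the liver, the Kupffer cells. Its signal was 4791, 5680.3 and 6731.5 on the normal diet, 6018, 5352, 5581 and 4257 in wild type on the high-fat diet, and 5273, 4252, 2180.4 and 2873 in transgenic mice. Transgenic arrays 3 and 4 were lowest of all 11, array 2 was next and array 1 lay within the wild-type range. Means were 5734 ± 971 (n = 3), 5302 ± 749 (n = 4) and 3644 ± 1386 (n = 4). The Akt1 difference was -0.61 ± 0.24, with a 95% interval of -1.12 to -0.10 (limma adjusted p = 0.279). Against the normal diet it was -0.72 ± 0.25, with an interval of -1.28 to -0.17 (0.163), and the diet difference was -0.11 ± 0.25 (0.954).

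These Slc40a1 values rested on transgenic arrays 3 and 4. Without them the Akt1 value was -0.15 (limma adjusted p = 0.784) and the value against the normal diet -0.26 (0.528). With them alone, without arrays 1 and 2, the values were -1.07 (0.0309) and -1.18 (0.0165), and Slc40a1 passed the threshold in both. Over all 7924 genes that setting called 158 in the Akt1 comparison and 348 against the normal diet. The adjusted p of Slc40a1 without arrays 3 and 4 and without arrays 1 and 2 were also the highest and lowest over the alternatives. The other Slc40a1 probe set had the same order of transgenic arrays, with 2350.5, 1622, 919.5 and 1367 against 1669.5 to 2814 in wild type.

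Kupffer cell markers are given beside these values. Of 14 markers 13 were on the array and 12 above the dim limit, and their summed signal was 3529 to 6554 on the normal diet, 4845 to 12176.5 in wild type on the high-fat diet and 10429, 16579, 6124 and 11125 on transgenic arrays 1 to 4. All 12 differences from the normal diet were above 0 in transgenic mice, with Cd5l and Folr2 past the threshold (limma adjusted p = 0.0456 and 0.0447, each in 1 of 7 fits with 1 array left out). Neither passed without transgenic arrays 3 and 4 or without arrays 1 and 2. Of all genes 50.6% were above 0 and 1.40% rose. For diet in wild type all 12 were above 0 too, with a median of 0.62 (all genes 51.1% above 0, median 0.007). In the Akt1 comparison 10 of 12 were above 0 (all genes 50.2%), and 0 were called in either. Cd163, a macrophage gene counted with haem recovery and not among these markers, did not share the rise. It was at -0.39 ± 0.49 for diet (limma adjusted p = 0.925), 0.07 ± 0.45 in the Akt1 comparison (0.959) and -0.32 ± 0.49 against the normal diet (0.773). Transgenic array 3, with the lowest Slc40a1 signal, had the lowest Kupffer sum of its group, and array 4, with the next lowest Slc40a1 signal, did not. In whole liver, fewer cells of a type and less RNA per cell cannot be told apart. The part of Kupffer markers in the Slc40a1 values was not tested.

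Transferrin receptor 1 (Tfrc) takes up transferrin-bound iron, and its transcript is stabilised by iron regulatory proteins when cell iron is low. Its signal was 754.9, 566 and 292 on the normal diet, 433, 506, 648 and 698 in wild type on the high-fat diet, and 273, 351, 799.7 and 595 in transgenic mice. The spread within groups was wide, and transgenic mice held both the lowest and the highest of the 11 values. Means were 538 ± 233 (n = 3), 571 ± 123 (n = 4) and 505 ± 239.9 (n = 4). The Akt1 difference was -0.28 ± 0.35 (limma adjusted p = 0.764), with an interval of -1.04 to 0.48. The other differences were 0.17 ± 0.38 for diet (0.953) and -0.11 ± 0.38 against the normal diet (0.903).

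The within-group SD of Tfrc was 0.59 in log2, above that of 91.9% of all genes, whose median was 0.24. Slc40a1 followed with 0.39, and the remaining 6 members lay between 0.11 (Fth1) and 0.23 (Slc11a2), Hamp at 0.14. A further 5 Tfrc probe sets were dimmer, 3 of them manufacturer control probe sets for this transcript. The brightest of these 5 gave 80.4 to 157.4, 88.5 to 168.5 and 41.1, 60.5, 228.9 and 168.9, with the same 2 transgenic arrays low and the same 2 high.

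Tfrc and Slc40a1 ran in opposite order among mice of a group. On the normal diet and in transgenic mice the array order of one was the exact reverse of the other. Over 11 arrays Pearson's r was -0.52 and Spearman's rho -0.50, and after taking the group means away r was -0.92 and rho -0.91. Without the 2 arrays farthest from the median of Tfrc, r was -0.41 over 9 arrays and -0.91 after centring. The pair had the most extreme centred value of 28 pairs of members and was picked after the values were seen. This is therefore a description of 11 arrays that share 1 scaling each. Transgenic arrays 3 and 4 had the higher Tfrc signals within their group.

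**Figure D4:**
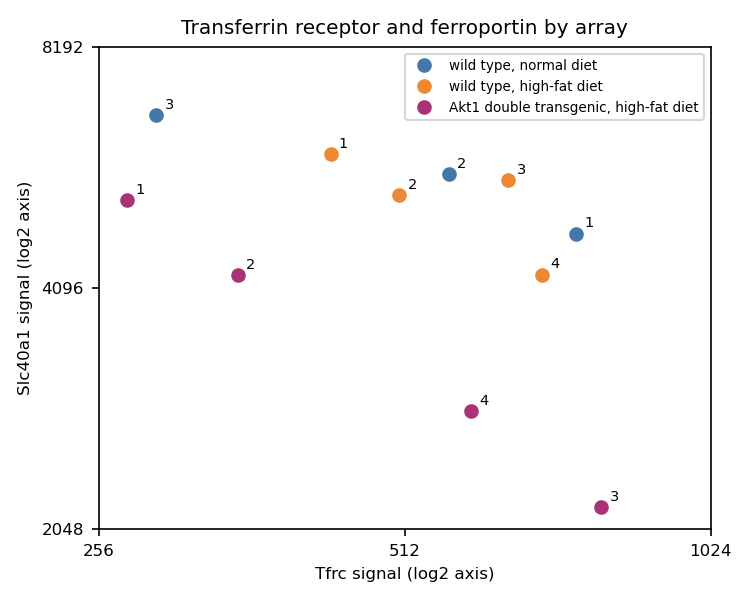
Signal of Slc40a1 (vertical, log2 axis) against Tfrc (horizontal, log2 axis) on 11 arrays, coloured by group. Within the normal-diet and the transgenic group a higher Tfrc signal goes with a lower Slc40a1 signal, from 273 and 5273 on transgenic array 1 to 799.7 and 2180.4 on array 3.

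Ferritin heavy chain (Fth1), the subunit with ferroxidase activity, gave 20712, 18034 and 21339 on the normal diet, 19507, 18176, 20887 and 20637 in wild type on the high-fat diet, and 19488, 17806, 20954 and 21327 in transgenic mice. The groups covered nearly the same range. Differences were -0.01 ± 0.097, 0.01 ± 0.090 and -0.01 ± 0.097 for diet, the Akt1 comparison and against the normal diet (limma adjusted p = 0.979, 0.986 and 0.972). The other Fth1 probe set gave 17566, 16535, 22956 and 22409 in transgenic mice against 14447 to 18432.5 in wild type, so transgenic arrays 3 and 4 alone lay above the rest. Its Akt1 difference was 0.21 ± 0.14 (0.620 over all probe sets). The features that set these 2 arrays apart moved with it, and their part was not tested.

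The 3 probe sets that name Ftl1 beside its pseudogene Ftl1-ps2 cannot be assigned to one of them. Their group means were 15960, 16116 and 15899 for the first, 12111, 12143 and 12751 for the next and 1454, 1088 and 949.6 for the last, which also names Mir692 genes. The probe set that names Trf beside Srprb gave 21320, 18787.5 and 21026 on the normal diet, 20270, 20426, 23195 and 20479 in wild type on the high-fat diet, and 22085, 21409, 28309 and 29421 in transgenic mice. As for the other Fth1 probe set, transgenic arrays 3 and 4 stood above all others and arrays 1 and 2 lay in the wild-type range.

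Slc11a2, the divalent metal transporter that moves iron out of endosomes, gave 222, 149.8 and 232 on the normal diet, 192, 182, 208 and 244.5 in wild type on the high-fat diet, and 204.5, 227, 252 and 193 in transgenic mice. The groups overlapped. Its differences were 0.06 ± 0.18, 0.09 ± 0.17 and 0.14 ± 0.18 in the order above (limma adjusted p = 0.964, 0.865 and 0.732). A dimmer Slc11a2 probe set gave -0.07 ± 0.28, -0.11 ± 0.26 and -0.18 ± 0.28 (0.987, 0.916 and 0.845 over all probe sets). The dimmest gave -0.45 ± 0.33, 0.12 ± 0.30 and -0.33 ± 0.33 (0.921, 0.923 and 0.718), so the signs differed between probe sets.

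The genes around Hamp are given from lists of its BMP and SMAD arm and its IL-6 and STAT3 arm. In the BMP and SMAD arm (ligands, receptors, SMADs and targets such as Id1), 14 of 18 genes were measured. All 14 were below 0 in transgenic mice against the normal diet, with 1 that fell, 0 that rose, and a median of -0.45 against 0.004 over all genes. Of all genes 50.6% were above 0, 0.681% fell and 1.40% rose in that comparison. In the diet comparison 11 of 14 were below 0 with a median of -0.18 (all genes 0.007), and in the Akt1 comparison 12 of 14 with a median of -0.22 (all genes 0.001), with 0 called in either. Of all genes 51.1% were above 0 and 0% called for diet, and 50.2% and 0.366% in the Akt1 comparison. Without transgenic arrays 3 and 4 the Akt1 median was -0.098 with 9 of 14 below 0, and without arrays 1 and 2 it was -0.45 with 11 of 14 below 0, with 0 called in both. Without transgenic arrays 3 and 4 the median against the normal diet was -0.19 with 12 of 14 below 0 and 0 called, and without arrays 1 and 2 it was -0.53 with 14 below 0 and 0 called. Over all 7924 genes, the setting without arrays 1 and 2 called 158 in the Akt1 comparison and 348 against the normal diet. Quantile normalization left all 14 below 0, with a median of -0.43.

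The gene that fell was Bmp2, a ligand from liver endothelial cells that sustains hepcidin. Its signal was 366, 405.6 and 436 on the normal diet, 388, 293, 333 and 320.3 in wild type on the high-fat diet, and 269, 266, 247 and 280.0 in transgenic mice. Every transgenic array lay below every wild-type array. The difference from the normal diet was -0.60 ± 0.13 (limma adjusted p = 0.0388, and 0.0336 to 0.160 over the alternatives), and it did not pass after any single array of the 2 groups was left out. Nor did it pass without transgenic arrays 3 and 4 or without arrays 1 and 2. With no filter, all probe sets, only the compared groups or the replicate block it was lost as well. Summed signals of the 10 endothelial markers were 4245 to 5439, 3734 to 4583 and 4565 to 5806 in the 3 groups, and the part of endothelial cells in the Bmp2 values was not tested. The Akt1 difference was -0.32 ± 0.12 (0.2497). Smad7 and Smad6, inhibitors that BMP signalling itself induces, gave -1.04 ± 0.34 (0.210) and -0.61 ± 0.22 (0.246) in the Akt1 comparison. Smad7 signals were 136 to 324 on the normal diet, 107 to 244 in wild type on the high-fat diet and 63.6 to 139.6 in transgenic mice, with some overlap. For diet the smallest p were those of Acvr2a, a receptor, at -0.29 ± 0.12 (0.681), and Bmp2, at -0.27 ± 0.13 (0.709).

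The list of the IL-6 and STAT3 arm holds signalling genes, transcription factors and the acute phase targets Saa1, Saa2, Fgb and Hp. Hp is also on the list of haem and haemoglobin recovery genes. In the IL-6 and STAT3 arm 13 of 14 genes were measured, and Il6 itself was dim. Of these, 11 of 13 were above 0 against the normal diet, with 4 that rose, 0 that fell and a median of 0.47, where 50.6% of all genes were above 0, 1.40% rose and the median was 0.004. The Akt1 comparison had 11 of 13 above 0, 1 that rose (Saa1) and a median of 0.36 (0.227% of all genes rose, with a median of 0.001), and the diet comparison 8 of 13 above 0, 0 called and a median of 0.17 (all genes 0.007). Of all genes 50.2% and 51.1% were above 0 in these comparisons. In the Akt1 comparison 0 rose with a median of 0.45 without transgenic arrays 3 and 4, and 4 rose with a median of 0.51 without arrays 1 and 2. In that last setting 158 of all 7924 genes were called in either direction. Without transgenic arrays 3 and 4, 1 gene rose against the normal diet and the median was 0.32, and without arrays 1 and 2, 5 rose. Over all 7924 genes these settings called 23 and 348 in either direction.

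The genes that rose were Stat3, the transcription factor of this arm, Socs3, its feedback inhibitor, and the acute phase genes Saa1 and Saa2, with Stat3 named after its values were seen. The Stat3 signal was 1477, 1228 and 1511 on the normal diet, 1631, 1821, 1554 and 2242.5 in wild type on the high-fat diet, and 2387, 3309.5, 2660.0 and 3050 in transgenic mice. The 3 groups did not overlap. Its difference from the normal diet was 1.02 ± 0.15 (limma adjusted p = 0.00928), held with any single array left out and was at 0.0715 without transgenic arrays 3 and 4, the highest over the alternatives, of which the lowest was 0.00695. The Akt1 difference of Stat3 was 0.66 ± 0.14 (0.0721).

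Socs3 gave 123, 164 and 436 on the normal diet, 201, 275, 102 and 538 in wild type on the high-fat diet, and 1394, 828, 840.1 and 1430 in transgenic mice. All transgenic arrays lay above all others. Its difference from the normal diet was 2.40 ± 0.52 (limma adjusted p = 0.0413), and with 1 array left out it passed only without normal-diet array 3 (0.0276 to 0.165 over the alternatives). It did not pass without transgenic arrays 3 and 4 or without arrays 1 and 2, nor with eBayes without trend or the replicate block. Saa1 rose by 3.90 ± 0.40 against the normal diet (0.00118) and by 2.07 ± 0.37 in the Akt1 comparison (0.0465). The first held with any single array left out. The second was lost without wild-type high-fat array 1, 3 or 4 or transgenic array 2, 3 or 4 (0.0136 to 0.296 over the alternatives). It was also lost without transgenic arrays 3 and 4 together, and with no filter, all probe sets, eBayes without trend or only the compared groups. In all, 7 of 18 alternatives kept it. Saa2 rose by 4.32 ± 0.75 against the normal diet (limma adjusted p = 0.0162). This was lost without normal-diet array 1, 2 or 3, without transgenic array 4 and without transgenic arrays 3 and 4 together (0.00337 to 0.120). Saa1 and Saa2 are close copies whose signals may mix.

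**Figure D5:**
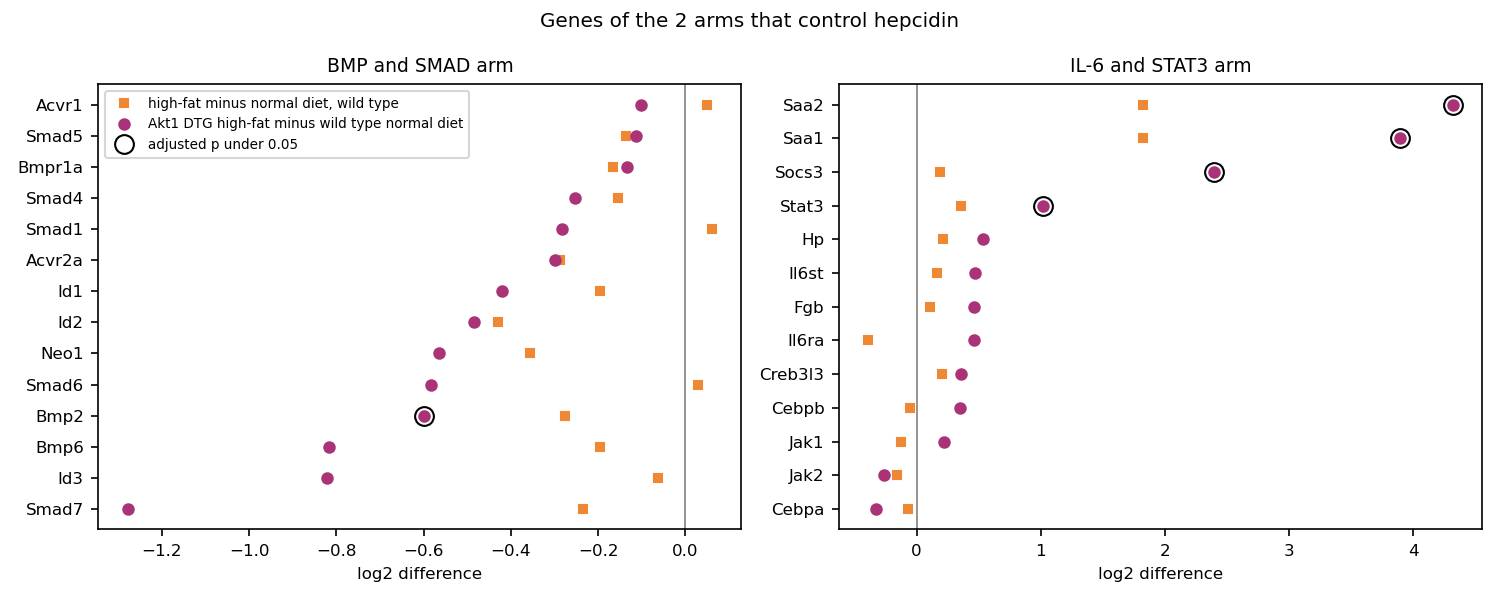
Log2 differences (horizontal axis) of the measured genes of the BMP and SMAD arm (14) and the IL-6 and STAT3 arm (13), for high-fat against normal diet in wild type and for transgenic mice set against that diet. Circled points have a limma adjusted p under 0.05; in the comparison with transgenic mice all 14 genes of the first arm lie below 0 and 11 of 13 of the second above 0.

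Hamp stood at -0.17 ± 0.11 against the normal diet beside these values. Neutrophil markers are given beside the second arm: of 10 markers 9 were on the array and 2, Prtn3 and Csf3r, above the dim limit on average, and the sum of the 9 was 247 to 306, 258 to 412 and 537 to 1964 in the 3 groups. Prtn3 made up most of the difference, at 7.0 to 34.6 on the normal diet, 6.1 to 43.9 in wild type on the high-fat diet and 202.6, 1417.8, 251.9 and 542.4 in transgenic mice. Its wild-type signals were all under the dim limit, so it was kept for testing only through the transgenic arrays, and no test is given. Csf3r overlapped between the groups, with an Akt1 difference of 0.27 ± 0.47 (limma adjusted p = 0.841). Apart from Prtn3 and Csf3r, the markers on the array, S100a8 and S100a9 among them, were under the dim limit on average. The part of neutrophil and Kupffer cell markers in the IL-6 and STAT3 values was not tested.

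Among iron sensing and ferritin turnover genes, 7 of 8 were measured. Pcbp2, an iron chaperone for ferritin, fell by 0.42 ± 0.095 against the normal diet (limma adjusted p = 0.0468), which no fit with 1 array left out kept (0.0363 to 0.150 over the alternatives), and 0 rose. The fall of Pcbp2 was also lost without transgenic arrays 3 and 4 and without arrays 1 and 2. The same held with no filter, all probe sets, eBayes without trend, only the compared groups and the replicate block. Aco1, which encodes iron regulatory protein 1, was at 6599, 7532 and 6300.1 on the normal diet, 7949, 6940.3, 6996 and 7238 in wild type on the high-fat diet and 6351, 6483, 4268 and 5025 in transgenic mice. Its transgenic values lay below those of wild type on the high-fat diet, with a difference of -0.42 ± 0.13 (0.1995) in the Akt1 comparison. Arrays 3 and 4 were again the lowest. The diet and Akt1 comparisons called 0 of the 7.

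Among 9 of 13 measured genes of other iron transport and reduction, Lcn2 and Steap4 rose against the normal diet and 0 fell. Lcn2, lipocalin 2, which binds iron-loaded bacterial siderophores, gave 71.8, 62.0 and 58.7 on the normal diet, 212, 1068, 359.5 and 764 in wild type on the high-fat diet, and 1180.1, 3174.5, 5720.0 and 8079 in transgenic mice. The 3 groups did not overlap. Its differences were 2.97 ± 0.62 for diet (limma adjusted p = 0.355), 2.86 ± 0.57 in the Akt1 comparison (0.0608) and 5.83 ± 0.62 against the normal diet (0.00118). Steap4, a metalloreductase, rose by 1.15 ± 0.20 against the normal diet (limma adjusted p = 0.0157). This was lost without normal-diet array 1, without transgenic array 4 and without transgenic arrays 3 and 4 together (0.00464 to 0.0624 over the alternatives). Slc39a14 (ZIP14), an importer of iron not bound to transferrin, had 2135, 1906 and 1490.3 on the normal diet, 1518 to 1791 in wild type on the high-fat diet and 2233 to 2795 in transgenic mice. All transgenic arrays were higher, with an Akt1 difference of 0.59 ± 0.12 (0.0683).

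Of haem and haemoglobin recovery genes 9 of 10 were measured and 0 were called in any comparison. Haptoglobin (Hp), which binds free haemoglobin, was at 0.54 ± 0.14 (limma adjusted p = 0.0638) and biliverdin reductase B (Blvrb) at -0.60 ± 0.16 (0.0751) against the normal diet. Of iron-sulphur cluster assembly genes 8 of 12 were measured and 0 were called. In the diet comparison all 8 were above 0 with a median of 0.22, where 51.1% of all genes were above 0 with a median of 0.007. The scaffold Iscu at 0.44 ± 0.13 (limma adjusted p = 0.593) and its chaperone Hscb at 0.42 ± 0.14 (0.658) had the smallest p. In the Akt1 comparison 6 of 8 were below 0 with a median of -0.13 (all genes 0.001), and against the normal diet 6 of 8 were above 0 with a median of 0.15 (all genes 0.004). Erythroid markers, whose RNA would come from blood, were on the array for 7 of 12 genes and above the dim limit for 2, with sums of 513 to 1731, 609 to 809 and 535 to 748.

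The genes most like Hamp in log2 signal over the 11 arrays were Myg1 (Pearson's r = 0.89), Ddhd2 (0.89), Phospho2 (0.88), Sox12 (0.88) and Dhx15 (0.85). For Tfrc they were Slain2 (0.88), Bnip3 (0.87), Ahcyl1 (0.85), Dennd1a (0.85) and Slmap (0.85). No other member of the iron genes was among them.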

How the data were processed

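Total liver RNA, 1 array per mouse, was labelled as biotin cRNA from a poly-dT primer, per the labels' protocols. The authors deposited linear intensity values (MAS5 signal). The submitters' processing notes name MAS5 without a version. A genome build is not given in the sources used here. Values under 1 (1386 in all) were set to 1 before log2. The 64 control probe sets and the lowest 40% by mean log2 signal were left out, and the brightest probe set with 1 symbol stood for each gene, which gave 7924 genes. One fit over all 11 arrays used limma 3.58.1 in R 4.3.3 (lmFit, eBayes with trend), two-sided, with Benjamini-Hochberg adjustment. Member probe sets were also tested in a fit over all 20393 probe sets with 1 symbol, the mapped control probe sets included. On simulated data the script was checked.

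The members and lists were chosen with earlier results of these data known. Named genes were all members, and from each other list and comparison up to 3 past the threshold of largest change or, where none passed, the 2 of smallest p, of which the text prints a part. Alternatives were quantile normalization, log2(signal + 32), no or a 60% filter, all probe sets and eBayes without trend. Further ones were only the compared groups, the replicate block, each array left out and the named pairs of transgenic arrays left out. Same-numbered arrays had correlations of deviations that were all above 0 in the Akt1 comparison (0.084 to 0.292). In the comparisons with the normal-diet arrays they had either sign (-0.072 to 0.111). Numbers were not taken as pairs in the main fit, and the replicate block was run as an alternative. The number of arrays limits precision, and no detection calls were used.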

Additional observations from a re-analysis of the deposited data

Results flagged for a closer look

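Of 52 sets of 4 arrays examined, 1 for each member probe set in each high-fat group, 6 had 1 array far from the other 3, where chance flags about 1 in 20. For the brighter Hamp probe set it was transgenic array 2 at 20651.5, with the others at 18104.6 to 18410.5. For the brighter Tfr2 probe set it was transgenic array 4 at 11790, with the others at 9732.2 to 10062.4. For the dimmer Hfe probe set it was wild-type high-fat array 3 at 69.1, with the others at 28.5 to 29.0. For Cp, wild-type high-fat array 2 was low on 2 probe sets, at 7649.9 on one (others 9648.6 to 9946.4) and 3923.7 on the other (others 5279.8 to 5469.2). On a dim Cp probe set, transgenic array 3 was at 128.4, with the others at 63.6 to 71.5.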

How the results depend on the processing

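No member was called in the alternatives run, except Slc40a1 without transgenic arrays 1 and 2, which made 1 of 8 called in the Akt1 comparison and 1 of 8 against the normal diet. The cause was not tested. The count of genes called in the Akt1 comparison, 29, was 12 with no filter on dim probe sets, 0 with eBayes without trend, 8 with only the compared groups in the fit, 4 without transgenic arrays 3 and 4 and 158 without arrays 1 and 2. Against the normal diet the count of 165 was 81 without trend, 104 with only the compared groups, 23 without arrays 3 and 4 and 348 without arrays 1 and 2. With the replicate block the counts were 2 for diet, 31 for the Akt1 comparison and 139 against the normal diet, and 0 members were called. With each array left out in turn the counts ranged from 0 to 2 for diet, 0 to 64 for the Akt1 comparison and 36 to 162 against the normal diet.

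Differences near 0 turned in sign. Fth1 in the Akt1 comparison was -0.12 with quantile normalization and -0.086 without transgenic arrays 3 and 4, and against the normal diet it was 0.082 without arrays 1 and 2. Tfrc was 0.30 in the Akt1 comparison and 0.47 against the normal diet without arrays 1 and 2. With each array left out, the diet differences ranged from -0.14 to 0.010 for Hamp, -0.22 to 0.46 for Tfrc, -0.11 to 0.0049 for Tfr2, -0.089 to 0.033 for Fth1, -0.23 to 0.012 for Slc40a1 and -0.14 to 0.17 for Slc11a2. The Akt1 difference of Fth1 ranged from -0.035 to 0.057. Against the normal diet Tfrc ranged from -0.50 to 0.19, Fth1 from -0.083 to 0.043, Hfe from -0.18 to 0.040 and Slc11a2 from -0.059 to 0.26. Hamp kept its sign in all alternatives run for both comparisons with transgenic mice (-0.20 to -0.03 and -0.35 to -0.12), as did Cp (0.28 to 0.40, adjusted p 0.146 to 0.373, and 0.33 to 0.54, 0.0595 to 0.210) and Tfr2 (0.30 to 0.41 and 0.20 to 0.36).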
